A study of Mus musculus with 10 samples.

Results

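The probes described here measure genomic intervals that the array's design names by position alone, as a chromosome, a start and an end in the mouse build mm9, with no gene name. They were chosen as the gene probes whose systematic name starts with "chr", a rule that uses no measured value. The rule found 16194 of the 55681 gene probes, or 29.1%, against 39487 other gene probes. They covered 3543 intervals on 20 chromosomes with a median length of 7304 bp, from 62 bp to 7128487 bp. Each interval name ends in F (8171 probes) or R (8010 probes), an orientation mark, and 13 probes carry none. The files do not say which RNA strand each mark detects. An interval name held a median of 3 probes and at most 10, and 1067 intervals had probes in both orientations.

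The study compared 5 groups of 2 arrays each, all from mouse and hybridised in 1 colour from 150 ng of total RNA. The muscle groups were untreated wild type C57BL/6J males, and males of the same background carrying hSA::Fv2E-PERK that received vehicle or AP20187 (1 ng/g, by injection into the abdomen) 12 h before collection. The cell groups were C2C12 myoblasts carrying Fv2E-PERK, kept in medium with 10% fetal bovine serum and then, for 3 days of differentiation, with 2% horse serum. They received ethanol as vehicle or 100 nM AP20187 for 12 h. The hSA promoter, that of skeletal actin, drives the transgene in muscle fibres, while whole muscle RNA also holds other cell types. The labels give no age, name no clone and do not say whether the 2 replicates were separate animals or cultures, so p-values measure the spread between these samples, which may be technical.

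PERK is a kinase of the endoplasmic reticulum that senses unfolded protein and phosphorylates the translation factor eIF2alpha. This lowers general protein synthesis and raises stress genes such as Atf3, Ddit3 and Ppp1r15a, a programme called the integrated stress response. Fv2E-PERK joins the kinase to a domain that AP20187 brings together in pairs, so that the drug switches the kinase on without unfolded protein. Probes for intervals named by position alone are placed on arrays to catch long noncoding RNAs, unannotated exons and other transcripts. Long noncoding RNAs are often less abundant and more restricted to certain tissues than messenger RNAs. Whether an interval overlaps an annotated gene was not checked here, so some of the intervals below may lie in known genes.

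The stress genes checked the treatment. On the log2 scale, Ddit3 rose by 3.14, Atf3 by 3.51 and Ppp1r15a by 4.05 with AP20187 in transgenic muscle, and Atf3 rose by 1.42 in C2C12 (limma, adjusted p below the threshold of 0.05 in each). In C2C12 the changes of Ddit3 (0.52, limma adjusted p = 0.128) and Ppp1r15a (0.56, limma adjusted p = 0.136) did not pass the test. Ddit3 and Atf3 were also higher in vehicle-treated transgenic than in wild type muscle, by 1.91 and 2.01. Eif2ak3, the gene of PERK itself, was not called in these comparisons (0.13 with AP20187 in muscle, 0.18 for the transgene, −0.26 in C2C12). Its probe need not read the transgene and so checks nothing about it. All 6 skeletal muscle markers were well above background in every group, with the outlier-flagged spots of 1 of them in C2C12 kept. The wild type arrays had a slide and scan session of their own, so that genotype, slide and session cannot be told apart, while the 4 transgenic arrays shared a slide and session. On that slide the vehicle arrays lay in column 1 and the AP20187 arrays in columns 3 and 4, so that treatment and column cannot be told apart. Within C2C12, vehicle and AP20187 lay in different rows of the slide, so that treatment and row cannot be told apart. The file headers give the same slide name and position to vehicle muscle replicate 1 and vehicle C2C12 replicate 1, and to vehicle muscle replicate 2 and AP20187 C2C12 replicate 1, scanned on different days. Their signals correlated at 0.864 and 0.842 over probes and are taken here as different hybridisations.

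Interval probes were seen above background less often than other gene probes on every array. The share of interval probes well above background (the scanner software's own test of a spot against its background) was 32.6% and 34.0% in wild type muscle, 27.7% and 27.9% in vehicle transgenic muscle, and 24.4% and 26.9% with AP20187. It was 37.2% and 22.2% in vehicle C2C12 and 27.5% and 25.9% in C2C12 with AP20187. The other gene probes ranged from 47.2% to 59.2%. The 2 vehicle C2C12 arrays lay furthest apart of any pair, and the other gene probes of the same arrays differed too, at 57.5% and 47.2%.

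Counted in percentage points, the gap between interval and other probes was wider in muscle. Interval probes were detected 27.5 ± 1.79 percentage points less often than other probes in muscle (SD, n = 6 arrays of 3 groups) and 22.2 ± 2.02 points less often in C2C12 (SD, n = 4 arrays of 2 groups). The difference of −5.29 points had an exact two-sided permutation p of 0.00952, the smallest that 6 against 4 arrays allow. The test exchanged single arrays although they come from 5 groups of 2. It thus treats the 2 arrays of a group as independent, and its p may be too small. All muscle arrays were scanned on 1 day and all C2C12 arrays on another, so tissue and scan day cannot be told apart. The lowest level called well above background was −4.43 to −3.61 on the muscle arrays and −3.07 to −2.10 on the C2C12 arrays (log2 signal minus the array's 75th percentile). The plain share of interval probes did not differ beyond its spread (28.9% ± 3.64 against 28.2% ± 6.37, exact permutation p = 0.819), so the difference lay in the gap to the other probes. The share of those other probes was 53.7% to 59.2% on the muscle arrays and 47.2% to 57.5% on the C2C12 arrays. As a ratio, interval share over other share, the tissues overlapped, at 0.455 to 0.574 in muscle and 0.471 to 0.647 in C2C12.

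On both arrays of a group, 4909 interval probes (30.3%) were well above background in wild type muscle, 3923 (24.2%) in vehicle transgenic muscle and 3697 (22.8%) with AP20187. In C2C12 the counts were 3458 (21.4%) with vehicle and 3633 (22.4%) with AP20187. At least 1 group detected 6354 interval probes (39.2%, against 62.8% of other gene probes), while 9840 passed in none. All groups shared 2013 probes (12.4%, against 36.4% of other gene probes). At least 1 muscle group and neither C2C12 group detected 2176 probes (13.4%), the same share as among other gene probes (13.4%). In C2C12 and in no muscle group 1161 were detected (7.17%, against 4.43% of other gene probes). Muscle had more groups than C2C12, and its lowest level called well above background was lower. Counted by name, 3140 of 4610 names (68.1%) had at least 1 detected probe.

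Detection varied with chromosome and little with orientation. F and R probes were detected at 39.1% and 39.4%. By interval length the share ran from 32.6% below 1 kb to 41.4% between 5 and 20 kb, and was 34.9% above 100 kb. By chromosome it ran from 28.7% on chromosome 9 to 46.7% on chromosome 5. Of the 1067 intervals with probes in both orientations, 667 had a detected probe on both, 150 on F alone, 151 on R alone and 99 on neither. Detection on both orientations was therefore the most frequent outcome. Each orientation was detected in most of these intervals, so both would often be detected in any case, and no expected count was computed.

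AP20187 lowered more interval probes than it raised in transgenic muscle. Tested were the probes with both arrays of some group of the fit well above background, and a probe was called where limma's adjusted p over all probes tested was below 0.05. Of 5193 interval probes tested in muscle, 621 were called, 112 higher and 509 lower with AP20187. Over all probes tested 18.5% were called, 9.28% higher and 9.18% lower, while 12.0% of interval probes were called. The median log2 change was −0.28 over the interval probes tested and −0.12 over the other probes. This gap varied with which probes were tested, and a dim probe can enter through the group where it is high. It was nearly absent with no filter and remained with detection required on every array, and its cause was not tested. With no filter the medians were −0.08 for interval and −0.08 for other probes (321 interval calls, 80 higher and 241 lower), and with detection required on every array they were −0.24 and −0.11 (583 calls, 101 higher and 482 lower). The count fell to 196 calls without vehicle replicate 2 (66 higher, 130 lower), to 239 without AP20187 replicate 1 and to 327 without AP20187 replicate 2. With 1 wild type array left out, 405 or 403 were called. The fit of the 4 transgenic arrays alone, from 1 scan session, called 461 (106 higher, 355 lower).

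Dim signal was common among these probes, and the share called rose with signal. All tested probes were split into 4 equal bins of mean signal. Of the interval probes tested in muscle, 47.9% lay in the dimmest bin and 7.16% in the brightest. From the dimmest bin to the brightest, AP20187 calls took 6.51%, 12.0%, 22.0% and 28.8% of interval probes, against 6.89%, 16.4%, 28.2% and 23.9% of the others. For the transgene, compared with wild type as described below, the shares were 23.1%, 33.9%, 39.6% and 44.4% against 19.7%, 26.7%, 37.9% and 55.3%. Calls thus rose with signal among interval probes in both comparisons.

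The largest rise with AP20187 in muscle that was measured on both sides was that of A_30_P01028387, an R probe of chr2:158169020-158191295. Its levels (log2 signal minus the 75th percentile of the array's gene probes, used for all levels below) were −1.95 and −1.54 with vehicle and 1.25 and 1.54 with AP20187, a rise of 3.14 ± 0.29 (SE, 8.83-fold, limma adjusted p = 0.00112). Wild type muscle stood at −2.85 and −2.00, and the 4 C2C12 arrays at 2.09 to 2.23. The muscle groups did not overlap, and muscle with AP20187 stayed below C2C12, where the probe changed by 0.07.

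The other 15 of the 16 probes named for their size in this comparison were not well above background on either array of one group, so their folds are lower bounds. A bound sets the brighter group's mean against the lowest signal well above background on the dim arrays, or the probe's own signal where that is higher. A_30_P01030583 (R, chr5:100845342-100869667) read −5.98 and −5.87 with vehicle and −2.17 and −1.54 with AP20187, a fitted rise of 4.07 ± 0.55 and at least 3.57-fold (adjusted p = 0.00382). C2C12 already stood between −1.68 and −0.47 in both treatments. A_30_P01022952 (F, chr11:6421951-6429173) was at least 5.78-fold higher with AP20187, at −5.61 and −4.12 against −1.72 and −0.61. A_30_P01025126 (F, chr2:35828611-35838083) was at least 5.66-fold higher, at −4.76 and −3.99 against −1.23 and −1.15. These 3 probes were all at or below −3.99 in untreated and vehicle muscle and were brighter in C2C12 than in that muscle.

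Among the falls, A_30_P01032734 (R, chr12:112224193-112225328) was steady in the muscle groups without AP20187. It read −1.62 and −1.22 in wild type, −1.46 and −1.20 with vehicle, and −4.52 and −5.19 with AP20187, a fitted fall of 3.52 ± 0.30 on the log2 scale and at least 6.44-fold (adjusted p = 0.000998). C2C12 lay between −4.69 and −3.81 and was not well above background in either treatment. A_30_P01028737 (F, chr12:109619407-109619843) was at least 2.43-fold lower with AP20187, at −3.03 and −2.44 against −5.67 and −5.72, while C2C12 held −2.33 to −1.62. A_30_P01019746 (R, chr12:111617728-111665403) was at least 2.39-fold lower, at −2.78 and −2.75 against −5.64 and −5.92. It was dim in wild type muscle (−5.88 in replicate 1) and bright in C2C12 (−1.23 to −0.20), so the vehicle arrays alone were high among the muscle arrays.

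The largest fitted fall, A_30_P01022788 (F, chr1:92177032-92180487, −5.02 ± 1.13, limma adjusted p = 0.0232), took much of its size from 1 array. Its vehicle arrays read 1.66 and −2.69, with AP20187 at −5.51 and −5.56 and wild type at −2.46 and −2.82. The fall was −2.84 without vehicle replicate 1, and it was not called without either AP20187 array. A_30_P01017516 (F, chr16:25517037-25531362) was well above background in vehicle muscle alone, at −1.57 and −2.19. It read −5.25 and −3.70 with AP20187, −5.84 and −5.55 in wild type, and −4.60 to −2.87 in C2C12. It was called lower with AP20187 (at least 3.43-fold) and higher in vehicle transgenic than in wild type muscle (at least 4.06-fold), both of which use the same vehicle arrays. The fall was not called without either vehicle array or without AP20187 replicate 1. Over the probes with bounds, the rises with AP20187 were at least 1.14- to 5.78-fold and the falls at least 2.28- to 11.3-fold, the last being A_30_P01022788 with its 1 high vehicle array.

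Calls with AP20187 often shared an interval. The 621 calls fell in 443 interval names, and 276 of them (44.4%) shared their name with another call. Of 98 names with 2 or more called probes, 93 had all their calls in 1 direction. Most calls (509 of 621) were lower, so calls would often share a direction in any case, and no expected count was computed. Of 664 names with 3 or more tested probes, 25 had every tested probe called the same way. Where both orientations of an interval had a call (28 of 531 intervals tested on both), 22 were lower on both, 1 was higher on both and 3 were lower on F and higher on R. Probes of 1 name may read 1 transcript and are not replicates.

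Intervals whose spans lay within 10 kb were joined into 1968 clusters, the largest with 78 probes. With AP20187 in muscle, 45 clusters had 3 or more probes called in 1 direction and none in the other, 11 higher and 34 lower, and 14 had calls in both directions.

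The most marked cluster with calls in both directions was chr12:74135916-74142780, 2 intervals with 18 probes over 7 kb, which is described because of its values. All 11 tested F probes were lower with AP20187 in muscle, by 0.90 to 1.44 on the log2 scale. Their mean level was 1.60 and 1.64 in wild type, 1.91 and 1.85 with vehicle, and 0.72 and 0.53 with AP20187. The R probes were arranged otherwise. Their mean level was −0.09 and −0.25 in wild type, −2.24 and −2.25 with vehicle, and −1.61 and −1.70 with AP20187. All 5 tested R probes were lower in vehicle transgenic than in wild type muscle, with log2 changes of −2.26 to −1.80, and each was called whichever array was left out. With AP20187, 4 of the 5 R probes were higher, by 0.59 to 0.89, but 0 were called without AP20187 replicate 1, at most 3 without any other array, and 1 with normexp. The F calls numbered 9 to 11 with 1 array left out. C2C12 with vehicle and with AP20187 stood at 0.41, 0.50, 0.18 and 0.30 on F, and at 0.05, 0.12, −0.28 and −0.22 on R, with no call. With the probes of each name averaged before the fit, F of the longer interval changed by −1.08 ± 0.13 with AP20187 and R by 0.59 ± 0.16 (limma adjusted p = 0.00384 and 0.0438). R changed by −2.08 ± 0.16 for the transgene (limma adjusted p = 0.000342). The change differed between muscle and C2C12 in 9 F probes, more negative in muscle (6 without AP20187 muscle replicate 2).

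A 6 kb cluster, chr17:26911032-26917047, had calls with AP20187 on 1 orientation. Of its 13 tested F probes 11 were higher with AP20187, by 0.64 to 0.89, and 10 or 11 were called whichever array was left out, while 0 of 6 R probes were called. The mean R level was nonetheless higher with AP20187 too, at −3.24 and −3.32 with vehicle and −2.98 and −2.95 with AP20187. The difference between orientations was not tested. The mean F level was 0.96 and 1.17 in wild type, 0.57 and 0.61 with vehicle, 1.36 and 1.39 with AP20187, and −0.92 to −1.02 on the C2C12 arrays. Vehicle transgenic muscle was thus below wild type and AP20187 muscle above it, and 9 F probes were called lower for the transgene (2 without wild type replicate 2). The difference from C2C12 was called for 6 F probes, and for 3 without vehicle muscle replicate 2, AP20187 muscle replicate 1 or AP20187 C2C12 replicate 1.

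In chr17:39960567-39992817, 5 intervals over 32 kb, 12 of 20 tested probes were higher with AP20187, by 0.49 to 1.13. Calls came from both orientations, 4 on F and 8 on R, and 4 R probes were called without vehicle replicate 2. The R probes averaged 2.96 and 2.68 in wild type, 2.33 and 2.15 with vehicle and 3.10 and 2.87 with AP20187, so that AP20187 muscle overlapped wild type and vehicle lay below both. C2C12 stood above every muscle array, at 3.99 and 4.18 with vehicle and 3.76 and 3.80 with AP20187. The difference from C2C12 was called for 13 probes, 9 of them on R. Of those, 5 were called without vehicle muscle replicate 2, AP20187 muscle replicate 1, vehicle C2C12 replicate 2 or AP20187 C2C12 replicate 1. Within the cluster, the 3 probes of chr17:39983902-39985688 on F changed by −0.03 to 0.00, so its intervals did not move as 1 block.

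Another pair of clusters rose from a level below that of C2C12. All 5 tested probes of chr4:146507925-146532650 on R were higher with AP20187, by 1.68 to 1.99, and 3 were called without vehicle replicate 2. Their mean was −2.49 and −1.89 in wild type, −1.70 and −1.87 with vehicle, and −0.17 and 0.26 with AP20187, while C2C12 read 0.07 to 0.48. In chr15:61984389-62102500, 4 intervals over 118 kb, 8 of 16 tested F probes were higher with AP20187 (0.66 to 3.01, 2 called without vehicle replicate 2). There, 12 of the 16 were higher and 1 lower in vehicle transgenic than in wild type muscle (8 higher without wild type replicate 1). The F mean was −2.68 and −2.78 in wild type, −1.79 and −1.80 with vehicle, −0.82 and −0.66 with AP20187, and −1.33 to −1.08 in C2C12. The 3 muscle groups thus did not overlap, in the order wild type, vehicle, AP20187, and muscle with AP20187 stood above every C2C12 array.

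Falls with AP20187 also ran along clusters. In chr3:137734560-137752677, 7 of 9 tested F probes were lower (fitted changes of −1.40 to −1.05, 6 or 7 called with 1 array left out), as was 1 of 3 R probes. Over the 7 F probes measured on all arrays the mean was 2.57 and 2.52 in wild type, 2.17 and 1.63 with vehicle, and 1.00 and 0.79 with AP20187. C2C12 read 1.46 and 1.35 with vehicle and 1.45 and 1.61 with AP20187, and 6 F probes differed from C2C12 in their change (4 without AP20187 C2C12 replicate 2). In chr4:11893711-11936190 all 8 tested F probes were lower with AP20187, by 0.58 to 0.95, and 4 were called without vehicle replicate 2. Their mean ran from 0.97 and 1.13 in wild type through 0.64 and 0.71 with vehicle to −0.10 and 0.01 with AP20187, and C2C12 lay at or below −2.02.

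In chr19:5771425-5848475, 6 intervals with 27 probes, calls came from different intervals in the 2 comparisons, and the difference between intervals was not tested. All 3 probes of chr19:5798135-5800557 and all 3 of chr19:5801802-5802597, both on R, were lower with AP20187 and not called for the transgene. With probes averaged, they changed by −0.94 ± 0.19 and −0.98 ± 0.23 (limma adjusted p = 0.0183 and 0.0273). All 3 probes of chr19:5834117-5835940 on R were called lower in vehicle transgenic than in wild type muscle (−1.85 ± 0.39, limma adjusted p = 0.0102). With AP20187 this interval changed by −0.97 ± 0.39, about as much as the first 2, but was not called (limma adjusted p = 0.119). The AP20187 calls on R fell from 6 to 0 without either vehicle array and in the deposited values.

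Vehicle-treated transgenic muscle differed from wild type in more interval probes. Of the 5193 tested, 1571 were called, 461 higher and 1110 lower in transgenic muscle, against 35.5% of all probes called (21.0% higher, 14.5% lower). Here 30.3% of interval probes were called. The median log2 difference was −0.31 for interval probes and 0.06 for the others, and this too varied with which probes were tested. The gap between the medians was nearly absent with no filter and remained with detection on every array, and its cause was not tested. More interval probes were well above background in wild type (4909) than in vehicle muscle (3923). With no filter the medians were 0.14 and 0.15, so the sign for interval probes turned (1341 calls, 450 higher and 891 lower), and with detection on every array they were −0.15 and 0.10 (1160 calls, 392 higher and 768 lower). Higher calls were 461 of 1571, while 328 of 1820 calls were higher with the percentile taken over the probes detected on all arrays, which moved the median of all probes from 0.00 to −0.13. Without wild type replicate 1 or 2, 728 or 787 probes were called, and 1125 without vehicle replicate 1. As stated, genotype, slide and scan session cannot be told apart here, and wild type muscle was untreated, so the vehicle injection also lies in this difference.

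A_30_P01029543 (F, chr2:113880070-113887230) showed the largest fall for the transgene. It read 0.89 and 1.52 in wild type, −5.44 and −4.42 with vehicle, −5.74 and −6.03 with AP20187 and 2.00 to 2.30 in C2C12, at least 29.9-fold lower in vehicle transgenic than in wild type muscle (log2 change −6.14 ± 0.42, adjusted p = 0.000114). All 4 transgenic arrays were dim and every other array was bright. A_30_P01025874 (R, chr5:74487385-74497428) was the opposite case. It read −3.59 and −4.20 in wild type, 0.94 and 1.15 with vehicle, 0.43 and −1.20 with AP20187 and −0.34 to 0.48 in C2C12, a rise of 4.94 ± 0.47 (30.8-fold, with 1 of the 2 wild type arrays well above background, adjusted p = 0.000411).

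A_30_P01022120 (R, chr13:22110479-22116629), measured on all arrays, rose 11.2-fold for the transgene. Its levels were −2.47 and −2.61 in wild type, 0.68 and 1.21 with vehicle, 0.60 and −0.06 with AP20187 and 0.84 to 1.46 in C2C12. A_30_P01021285 (F, chr14:21029450-21049451) was at least 16.1-fold higher, at −4.15 and −4.51 in wild type against −0.44 and 0.66 with vehicle, and stayed at 0.72 and 1.33 with AP20187. It was well above background on 1 of the 4 C2C12 arrays and on neither wild type array. A_30_P01029515 (R, chr9:40031056-40031687), called lower for the transgene, read −3.67 and 0.39 in wild type, so 1 array sets its size. Its change of −4.14 was −2.11 without wild type replicate 2, and it was not called without that array or either vehicle array. Of the 16 probes named for their size in this comparison, 12 have only a bound.

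The calls for the transgene also shared intervals. The 1571 calls lay in 1087 names, and 786 of them shared a name with another call. Of 302 names with 2 or more calls, 255 had 1 direction. Most calls (1110 of 1571) were lower here too, and no expected count was computed. There were 117 clusters with 3 or more calls in 1 direction alone, 34 higher and 83 lower, and 107 with both. Both orientations of an interval were called in 109 intervals, lower on both in 51, higher on both in 19, higher on F and lower on R in 9, and the reverse in 15.

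In chr11:95627874-95658549, 39 probes, 19 of 26 tested probes were lower in vehicle transgenic muscle, 11 on F (6 without vehicle replicate 2) and 8 on R (3 without either wild type array). In chr10:69667411-69686275 all 8 tested F probes were lower, with log2 changes of −1.93 to −0.97, and 3 were called without wild type replicate 2 or vehicle replicate 1. In chr6:30983012-31293337, 310 kb with 52 probes, 11 of 16 tested R probes were lower (−2.57 to −0.61) and 0 of 11 F probes. The R mean was −0.76 and −0.78 in wild type and −2.05 and −2.20 with vehicle, and the F mean was 2.35 and 2.45 against 2.12 and 2.25. Without either wild type array 6 R probes were called, and the difference between orientations was not tested.

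In C2C12, AP20187 moved few interval probes past the threshold. Of 4167 tested, 6 were called, 5 higher and 1 lower, against 0.281% of all 23095 probes tested (0.191% higher, 0.0909% lower). At an unadjusted p below 0.05 there were 895. The median log2 change was 0.05 over interval probes and −0.06 over the others. This fit has 4 arrays, and leaving out an array, which changes the estimate of the spread, gave 33 to 506 calls, most without vehicle replicate 1. Without vehicle replicate 2 there were 33, without AP20187 replicate 1 there were 74, and without replicate 2 there were 81. The count also varied with the scale. On the AP20187 arrays 2.37% and 2.00% of gene spots were flagged as outliers, against at most 0.376% on the other arrays. With the percentile over unflagged probes, the median change of all probes moved from −0.05 to 0.14 and 41 interval probes were called, all higher. With the percentile over probes detected on all arrays, the median moved to 0.05 and 6 were called, all higher. The cause was not tested. In the deposited log2 values 0 were called. Of the adipocyte markers, 0 of 5 were well above background in vehicle C2C12 and 5 of 5 with AP20187, and their summed level ran from −0.30 to 0.20 and from 3.11 to 3.61. With flagged spots kept, the summed level of 6 fibroblast markers was 9.86 to 10.1 with vehicle and 9.76 with AP20187 (5 detected in both). That of the skeletal muscle markers was 9.26 to 9.44 and 9.03 to 9.08 (6 detected in both). The summed endothelial level was 3.60 to 3.85 and 3.14 to 3.16, with Pecam1, Cdh5 and Tek not well above background. Their part in the interval calls was not tested.

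The largest rise in C2C12 was A_30_P01031435 (F, chr8:125031410-125075960), at −2.05 and −1.86 with vehicle and 0.20 and −0.30 with AP20187, a change of 1.91 ± 0.27 (3.76-fold, with 1 of the 2 vehicle arrays well above background, adjusted p = 0.0082). It was not well above background in muscle. A_30_P01028640 (R, chr12:20240893-20435318) was at least 3.44-fold higher, and A_30_P01018264 (F, chr1:195327945-195336595) rose 2.75-fold, from −1.28 and −0.98 to 0.34 and 0.31. Both were not well above background in any muscle group. A_30_P01028640 was not called without either AP20187 array or after quantile normalization.

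A_30_P01027780 (R, chr7:129293609-129294172) was measured in both tissues and rose 2.57-fold in C2C12, from −0.63 and −0.38 to 0.84 and 0.88 (adjusted p = 0.00402). In transgenic muscle it read −2.09 and −1.97 with vehicle and −2.11 and −2.38 with AP20187. A_30_P01028950 (F, chr12:111322030-111323387) rose 2.83-fold in C2C12, from −1.57 and −1.11 to 0.39 and −0.06, and read −1.90 and −1.68 against −1.95 and −1.91 in transgenic muscle. The call of the latter was lost after quantile normalization. The 1 fall was A_30_P01018579 (R, chr5:143200557-143204033), at 1.82 and 2.03 with vehicle and 0.79 and 1.19 with AP20187. Its transgenic muscle levels were −0.28 and −0.66 against −0.17 and −0.42. The call of this fall was lost without vehicle replicate 2, with flagged spots kept and under each other scaling. In all 3 probes the difference between the tissues was itself called, with muscle minus C2C12 at −1.58, −1.64 and 1.11 (limma adjusted p = 0.0126, 0.0226 and 0.0337).

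The AP20187 changes of the tissues were set side by side. The 2 comparisons share no array but share the array design. Over 3006 interval probes tested in both, the changes correlated at r = 0.00786 and rho = 0.00939, given as a description. Over 17179 other gene probes the values were alike, at r = −0.00219 and rho = 0.0180. Of the 434 interval probes called in muscle, 89 were higher there, with a median of 0.86. In C2C12 the median of these 89 was −0.04, and 35 of them had a positive change. The 345 that were lower in muscle had a median of −0.67 there and −0.11 in C2C12, and 222 were negative in C2C12. Among the other gene probes tested in both, 899 of 2261 higher and 1084 of 1555 lower calls in muscle had the same sign in C2C12. The difference itself was called for 117 of the 434 interval probes (27.0%) and for 1427 of 3816 other probes (37.4%).

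In the fit of all 10 arrays, the AP20187 change differed between muscle and C2C12 in 240 of 6343 interval probes tested, 62 more positive and 178 more negative in muscle. Over all probes 6.89% were called (4.59% positive, 2.30% negative), and over interval probes 3.78%. The more positive share of the interval calls was 25.8%. It was 40.8% after quantile normalization, 15.5% with the percentile over detected probes and 10.1% over unflagged probes. With normexp background correction it was 6.06%. The size of the split thus varied with scaling and background correction, though the more negative calls outnumbered the more positive under each of these. Without vehicle muscle replicate 1 there were 254 calls and without vehicle C2C12 replicate 1 there were 316, while without any of the other 8 arrays there were 101 to 148. There were 9 clusters with 3 or more calls in 1 direction alone, 7 more positive and 2 more negative in muscle.

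Markers of other cells differed between the muscle groups beside these results, given as summed log2 levels. The 6 measured macrophage markers, all well above background in muscle, stood at 4.97 to 5.08 in wild type, 4.77 to 4.93 with vehicle and 4.05 to 4.17 with AP20187. With AP20187 against vehicle, endothelial markers (4) stood at 3.83 to 5.28 against 5.45 to 5.55, Schwann cell markers (4) at 4.16 to 4.45 against 4.68 to 4.87, and lymphocyte markers (4, with 2 well above background) at 1.12 to 1.31 against 1.84 to 2.23. Erythroid markers (2) stood at 7.62 to 7.76 against 7.86 to 7.94, and skeletal muscle markers (6) at 12.9 to 13.1 against 13.3 on both vehicle arrays. All these ranges lay lower with AP20187 and did not overlap. Fibroblast markers (8.85 to 9.13 against 9.01 to 9.25) and adipocyte markers (7.82 to 8.56 against 8.20 to 8.67) overlapped. For the transgene, vehicle lay above wild type in adipocyte markers (wild type 7.59 to 7.98) and skeletal muscle markers (wild type at most 13.2), and below it in fibroblast (9.34 to 9.48) and macrophage markers. Their part in the interval changes was not tested, and in whole muscle fewer cells of a type and less RNA per cell cannot be told apart.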

How the data were processed

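The 10 Agilent 1-colour mouse arrays were read with Agilent Feature Extraction 10.7.1.1, per the submitters' processing notes. The deposited scanner files give the authors' processed intensity of each spot, background-subtracted by that software, and the deposited table gives log2 values, used as an alternative. Interval coordinates are mm9, per the file headers. Control spots and outlier-flagged spots were left out. The log2 intensity minus the 75th percentile of all gene probes of the array was tested with limma 3.58.1 (R 4.3.3, lmFit and eBayes with trend), with Benjamini-Hochberg adjustment over all probes tested. The muscle fit held 6 arrays, the C2C12 fit 4 and the fit of the difference 10. Taking the percentile over flagged and unflagged probes alike was chosen after seeing the data. Normexp used the median spot signal and median background with an offset of 50. Each interval probe has 1 spot. The number of arrays limits the precision.

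Named were the 8 largest rises and falls per comparison (6 for the difference), 1 per cluster, among called probes with a value on every array, and up to 5 clusters with most calls in 1 direction. Values are shown for some of these. The clusters on chromosomes 12 (7 kb) and 19, and intervals within clusters, were chosen after their values were seen. Intervals on chromosome 18 are not named. The members and lists were chosen with earlier results of these data known. The scripts were tested on simulated data. Alternatives were another scaling, background correction, filter, source of values, replicate block, averaging of probes per interval, and leaving out arrays.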

Additional observations from a re-analysis of the deposited data

Results flagged for a closer look

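The AP20187 change differed between muscle and C2C12, by the test of the difference itself (limma, fit of all 10 arrays), in 240 interval probes. The 6 largest in each direction are given as muscle minus C2C12 on the log2 scale. Most of these probes were not well above background in some groups, where their levels have no firm value.

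More positive in muscle were A_30_P01030583 on chromosome 5 at 3.40, A_30_P01028387 on chromosome 2 at 3.07 and A_30_P01027654 on chromosome 15 at 2.98. A_30_P01029457 on chromosome 4 stood at 2.92, A_30_P01018251 on chromosome 3 at 2.62 and A_30_P01026031 on chromosome 4 at 2.41. Of these, A_30_P01028387 was well above background on every array. A_30_P01027654 lies in the same interval (F, chr15:62046023-62082530) as A_30_P01031483, which read −6.02 and −4.86 with vehicle and −2.37 and −2.48 with AP20187 in muscle.

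More negative in muscle were A_30_P01032734 on chromosome 12 at −4.06, A_30_P01026427 on chromosome 6 at −3.82 and A_30_P01019689 on chromosome 2 at −3.75. A_30_P01032274 on chromosome 4 stood at −3.61, A_30_P01020558 on chromosome 7 at −3.28 and A_30_P01033660 on chromosome 8 at −3.25. A_30_P01026427 read −3.34 and −2.95 with vehicle and −4.37 and −4.27 with AP20187 in transgenic muscle, and −4.64 and −3.36 against −1.57 and −1.14 in C2C12. Its change in C2C12 alone was not called (2.65, limma adjusted p = 0.106), and it was not tested in muscle alone. With 1 array left out in turn, A_30_P01028387, A_30_P01030583, A_30_P01032734 and A_30_P01026427 kept their call each time, while the other 8 lost it without at least 1 array.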

How the results depend on the processing

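The 621 AP20187 calls in muscle became 321 with no filter on dim probes, 412 in the deposited log2 values, 146 with 1 value per interval and 196 to 665 with 1 array left out. The 1571 calls for the transgene became 377 with 1 value per interval and 728 to 1542 with 1 array left out. The 6 calls in C2C12 became 3 after quantile normalization, 239 with normexp, 41 with the percentile over unflagged probes (an alternative chosen after seeing the data), 167 with no filter, 0 in the deposited values (limma, with 895 at an unadjusted p below 0.05) and 33 to 506 with 1 array left out. The 240 calls of the difference became 152 after quantile normalization, 1188 with normexp, 367 over unflagged probes, 130 with no filter, 54 with 1 value per interval, 148 without the wild type arrays and 101 to 316 with 1 array left out, 101 without AP20187 C2C12 replicate 1, 114 without AP20187 muscle replicate 1 and 121 without vehicle muscle replicate 2. With 1 value per interval the share called was 5.37%, 13.9% and 1.70% for AP20187 in muscle, the transgene and the difference. The cause was not tested for any setting. The percentile over unflagged or detected probes moved the median difference of all probes from −0.11 to −0.30 or −0.21.

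The difference of A_30_P01029457 turned to −0.30 and that of A_30_P01018251 to −0.025 with normexp, and the cause was not tested. Normexp shrank all 16 named AP20187 changes in muscle and all 16 for the transgene by over 1.5 times, to a median of 0.178 and 0.213 of their size. Under every alternative that gave a value, 10 of 16 named probes kept their call for AP20187 in muscle, 11 of 16 for the transgene, 0 of 6 in C2C12 and 3 of 12 for the difference. The gap in detection between muscle and C2C12 was −6.65 and −4.62 points under the other settings and −6.20 to −4.65 with 1 array left out. Clusters called in 1 direction in muscle numbered 43 at 1 kb and 48 at 100 kb.

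Replicate numbers did not pair the samples, since the deviations of same-numbered arrays correlated at −0.01, 0.10, 0.13 and 0.04. With the replicate block 979 interval probes were called for AP20187 in muscle, 78 in C2C12, 1779 for the transgene and 214 for the difference. Signal close to background limits most large changes, whose folds are bounds.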
